A study of Sus scrofa with 8 samples.

Results

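Lung of Tibetan pigs kept at low altitude (TL) was compared with lung of Duroc pigs at the same altitude (DL), each group with 2 arrays of the 8 in the series. The members are the non-control probes that the scanner software marked as well above background on at least 1 of these 4 arrays, 33177 of the 43603 probes on the array. Of these, 2922 have a RefSeq transcript as their target (RefSeq-target probes) and stand for 1711 named genes, and 30255 have an expressed sequence tag, a cluster of such tags, an Ensembl transcript or no stated target (other probes). They are described apart throughout. All animals were females of 6 months, and each array held the RNA of 1 pig. The Duroc pigs stayed where their population lives, at 40 m. The Tibetan pigs came from a population at 3500 m and were moved down at 1 month of age, so that breed, early life at altitude and the move itself cannot be told apart in TL against DL. The other groups, Tibetan pigs that stayed at 3500 m (TH) and Duroc pigs moved there at 1 month (DH), entered the same fit and serve below as the comparison of the breeds at high altitude.

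Lung of TL pigs had far more RNA of the secreted airway defense proteins BPIFA1, DMBT1 and CLCA1, of the neutrophil chemokines AMCF-II and CXCL2, of the chaperone HSPH1 and of the splicing factor SRSF5. DL pigs had far more RNA of the detoxifying enzyme CYP1A1, of the muscle protein MYOZ3, of the natriuretic peptide NPPB, and of EDN1, EDN3 and ACE, which act on vessel tone, and of the insulin-like growth factor genes IGF2 and IGFBP2. Neither group of genes went 1 way. LYZ, also of airway secretion, and BPIFB2, a relative of BPIFA1, were lower in TL, and the muscle genes CA3 and ACTA1 were higher. The largest difference upward was 121-fold (BPIFA1) and the largest downward was 56.5-fold (CYP1A1). Of the 25 tested ribosomal protein genes and of the 17 of oxidative phosphorylation 1 each was called. Both lists are bright, and bright probes were called less often than those of middle level.

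Lung is built of thin alveolar type I cells, surfactant-making type II cells, conducting airways lined by ciliated and secretory cells, a dense capillary bed, smooth muscle and resident macrophages. Secretory cells of the airway release mucins and antimicrobial proteins, and endothelial cells set the tone of pulmonary vessels through endothelins, nitric oxide and angiotensin-converting enzyme. Tibetan pigs are a highland breed and Duroc pigs a lowland meat breed, and the series set both breeds at both altitudes to ask how lung expression relates to life at altitude. The tissue label was checked by its own markers. SFTPC, the surfactant protein made by type II cells alone, gave log2 values of 18.79 and 18.77 in TL and 18.89 and 18.87 in DL, among the brightest on the array, and AGER, a type I marker, gave 12.54 and 12.64 in TL and 12.79 and 12.76 in DL. In bulk tissue fewer cells of a type and less RNA per cell cannot be told apart.

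All values below are deposited log2 signals, normalized by the authors so that each array has a median of 7.4, and a difference is the TL mean minus the DL mean. A probe is called, and is said to be higher or lower, where limma gave a false discovery rate (FDR) below 0.0001 over all 33177 probes, the threshold of the study's methods. The 2 arrays of a group were close, with a median SD of 0.03 in TL and 0.022 in DL over the RefSeq genes. The adjusted p-values rest on the spread between the 2 pigs in each of the 4 groups of the fit, which limma moderates across probes. They measure no other source of variation. Before normalization the TL arrays were brighter, with a median spot signal of 324 and 333.5 against 207.5 and 214 in DL, and had more probes well above background, 31722 and 31641 against 27225 and 27088. Pearson's r across probes was 0.994 between the TL arrays, 0.982 between the DL arrays and 0.913 to 0.914 between TL and DL, the lowest of any pair of groups. Both TL arrays lay on 1 slide and both DL arrays on the other, so that slide and group cannot be told apart in any value of TL against DL. The part of the brightness and of the slide in the results was not tested.

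RefSeq-target probes leaned toward DL and other probes toward TL in their large differences. Over all probes 40.3% were called, 17.1% higher and 23.2% lower in TL. Of the RefSeq-target probes 246 were higher (8.42%) and 879 lower (30.1%), 38.5% in all, and their median difference was -0.29. Of the other probes 5430 were higher (17.9%) and 6816 lower (22.5%), 40.5% in all, with a median of -0.19. Among called probes with a difference of at least 4-fold, however, 2786 other probes were higher and 433 lower, against 27 and 59 of the RefSeq-target probes. At an FDR below 0.05 together with a change of at least 2-fold, 129 RefSeq-target probes were higher (4.41%) and 533 lower (18.2%), against 6612 (21.9%) and 4831 (16.0%) of the other probes. Detection followed the same split, since 4957 other probes were well above background in TL and on no DL array and 737 in DL alone, against 150 and 28 RefSeq-target probes. Within the other probes, those aimed at tag clusters were higher in 25%, whereas those aimed at Ensembl transcripts were higher in 7.41% and lower in 26.4%, close to the RefSeq-target probes. Leaving out 1 of the TL or DL arrays left 74 to 91 RefSeq-target probes higher and 266 to 290 lower, and leaving out 1 of the TH or DH arrays 139 to 157 and 542 to 545.

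The lean of the RefSeq-target probes depended on signal level. Their median difference was -0.33 below a mean log2 level of 6, -0.70 at 6 to 8, -0.72 at 8 to 10, -0.50 at 10 to 12, -0.15 at 12 to 14 and -0.08 above 14. At 8 to 10, 52.7% were lower in TL, and above 14, 12.3%. A gene of middle level was therefore more often called lower than a bright gene, and counts of lower genes below are to be read with that in mind. When each array was centred by level over the RefSeq-target probes, a setting added after seeing the data, 418 RefSeq-target probes were higher and 380 lower, and 7204 other probes were higher and 2362 lower, so that the share of higher calls moved from 21.9% to 52.4% of the called RefSeq-target probes. With scaling to the 75th percentile it was 12.2%, and the median difference of all probes was -0.28 in place of -0.20 (0.17 under level centring). All 246 probes called higher stayed called under level centring, and 380 of the 879 called lower did. The curve was fitted over these same probes and brought their median near 0, at 0.01 in place of -0.29. Since the median was below 0 at each level, centring raised differences, so that kept higher calls are no independent support.

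**Figure D1:**
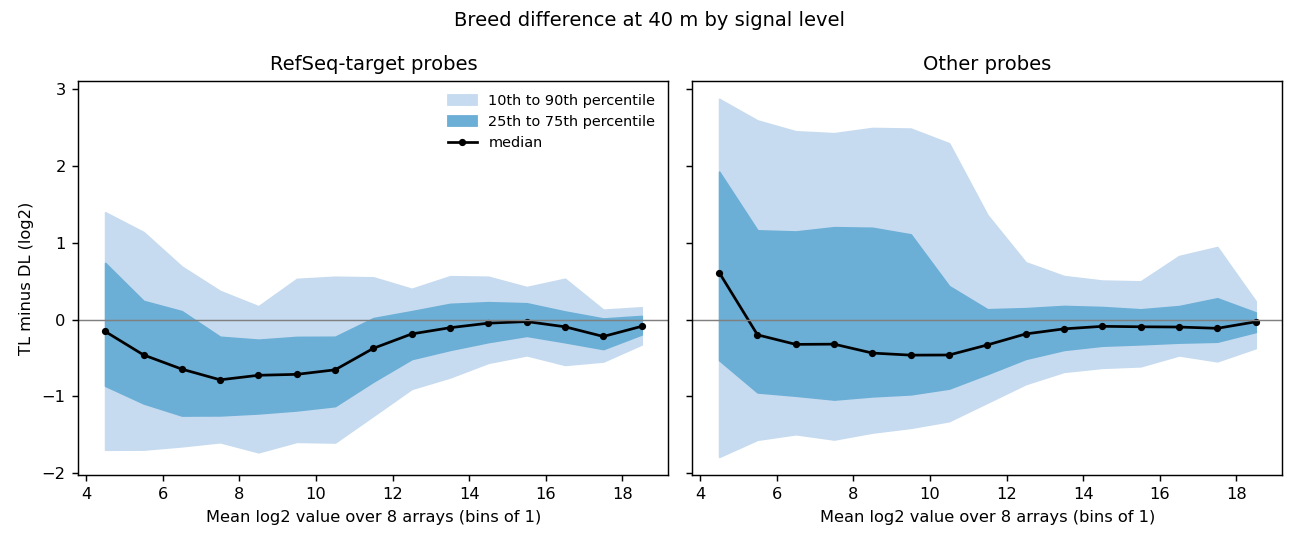
TL minus DL difference (log2) against the mean log2 value over 8 arrays in bins of 1, for RefSeq-target probes (left) and other probes (right), as median (line) and as percentile bands. The RefSeq-target median dips to between -0.65 and -0.78 at levels of 6 to 11 and lies near 0 above 14, while the upper band of the other probes reaches over 2 at levels up to 11.

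At the level of genes, taken at the brightest RefSeq-target probe, 146 of 1711 were higher in TL (8.53%) and 523 lower (30.6%), 39.1% in all, and the median difference was -0.30. At an FDR below 0.05 with at least 2-fold, 79 were higher (4.62%) and 346 lower (20.2%). Of 483 genes with over 1 RefSeq-target probe, 132 had a probe of opposite sign, among them 19 of 57 genes called higher and 11 of 122 called lower.

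BPIFA1 stood first among the genes higher in TL. It encodes a protein that upper airway epithelium secretes and that binds bacteria. Its log2 values were 15.70 and 15.70 in TL and 8.86 and 8.71 in DL, a difference of 6.91 ± 0.06 (SE) with an adjusted p of 2.71e-07 by limma. A second RefSeq-target probe gave 6.83. DMBT1, a scavenger receptor-like glycoprotein of mucosal surfaces, followed with 11.81 and 11.79 in TL and 8.15 and 8.20 in DL, 12.3-fold higher. CLCA1, a secreted product of goblet cells, gave 14.49 and 14.53 in TL and 12.32 and 12.34 in DL. All 3 were chosen for the size of their difference, so that the gap between the groups follows from the choice. KLF5, a zinc finger transcription factor of epithelia, was higher by 2.70, with 12.47 and 12.49 in TL and 9.83 and 9.73 in DL, but its other probe gave -0.61, lower in TL with an adjusted p of 3.4e-05 by limma, so that the direction of the gene is uncertain. ACAN, the large proteoglycan of cartilage, was higher by 2.26 at its brightest probe and by 1.97 at a second, while another gave -1.07.

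Chemokines that attract neutrophils came next. AMCF-II, first found as a product of porcine alveolar macrophages, gave 9.44 and 9.45 in TL and 6.84 and 6.83 in DL, 6.09-fold higher in TL. CXCL2 gave 15.64 and 15.59 in TL and 13.12 and 13.10 in DL, 5.67-fold higher. TNNI3, the inhibitory troponin of heart muscle, gave 14.02 and 14.04 in TL and 11.49 and 11.47 in DL, and its 4 probes were higher by 1.63 to 2.64. IVNS1ABP, which binds an influenza virus protein and takes part in RNA processing, was higher by 2.06, and ALB, serum albumin, by 1.99 (14.05 and 14.09 in TL and 12.06 and 12.09 in DL). For each of these genes the lower TL array lay above the higher DL array by over 1 log2 unit, which follows from their choice by size.

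CYP1A1 stood first among the genes lower in TL. It encodes a monooxygenase that the aryl hydrocarbon receptor induces when cells meet polycyclic aromatic compounds. Its values were 8.27 and 8.27 in TL and 14.09 and 14.08 in DL, a difference of -5.82 ± 0.02 (SE, adjusted p = 2.71e-07 by limma), with both TL arrays far below both DL arrays. MYOZ3, a calcineurin-binding protein of the Z-disc of fast muscle fibers, gave 7.28 and 7.34 in TL and 10.95 and 10.92 in DL, and a second probe was lower (-3.71). APOA4, an apolipoprotein best known from the intestine, gave 5.64 and 6.01 in TL and 9.45 and 9.46 in DL. SERPINA7, thyroxine-binding globulin, was dim in TL, with 4.69 and 4.42 in TL and 8.01 and 8.01 in DL. VPREB1, part of the surrogate light chain of pre-B cells, gave 9.04 and 8.99 in TL and 12.24 and 12.19 in DL, and FCN1, a lectin of monocytes that starts the complement cascade, gave 10.80 and 10.82 in TL and 13.48 and 13.45 in DL. These genes too were chosen by size, so that the gap between their groups is no further support.

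Peptide hormones and secretory granule proteins were among the largest differences downward too. NPPB, the B-type natriuretic peptide, was 6.57-fold lower in TL, with 6.46 and 6.45 in TL and 9.15 and 9.19 in DL. NPW, neuropeptide W, was lower (-3.41), and CHGB, chromogranin B of neuroendocrine granules (-2.64), with 6.24 and 6.39 in TL and 8.97 and 8.94 in DL. BPIFB2, of the same family as BPIFA1, went the other way from it, lower (-2.87). CELA2A, a pancreatic elastase, was lower (-2.64), and C7H6orf52, a gene of unknown function (-2.66).

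**Figure D2:**
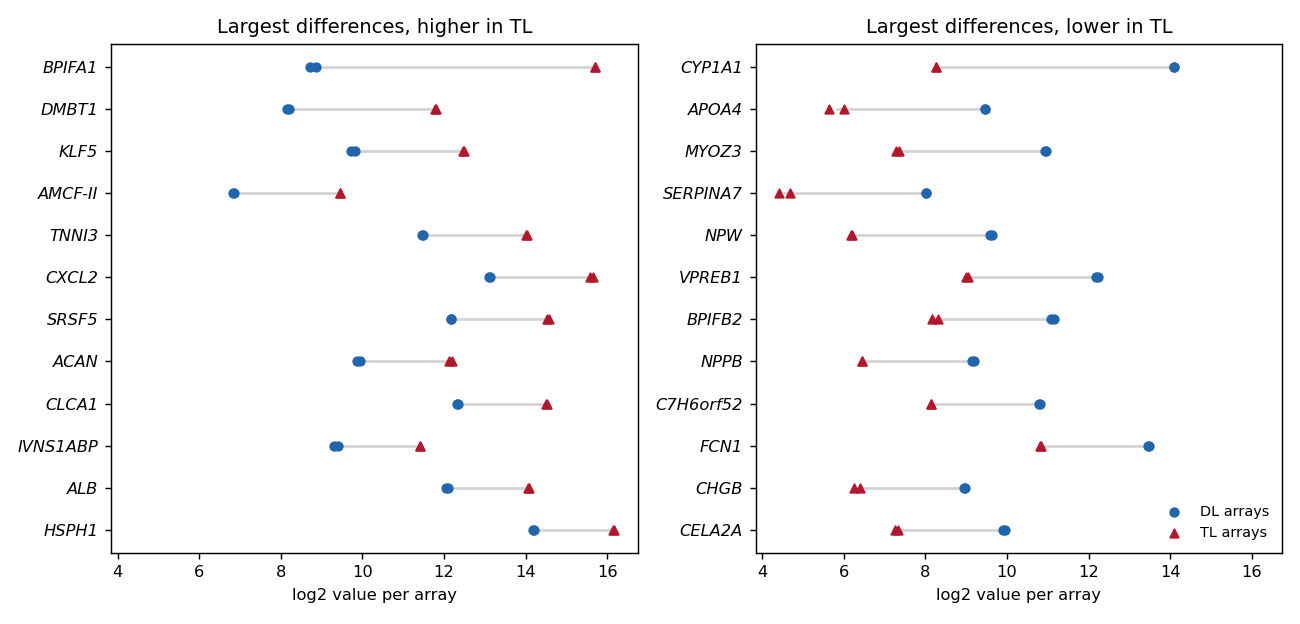
Deposited log2 value of each TL (triangles) and DL (circles) array for the 12 RefSeq genes with the largest called differences in each direction, with a line between the group means. BPIFA1 spans 8.71 to 15.70 and CYP1A1 8.27 to 14.09, and the arrays of a group lie together for every gene.

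Of the 1711 RefSeq genes 84 were well above background in TL and on no DL array, and 21 in DL alone. For such genes only a bound can be given. Those with the largest bounds among called genes follow, each well above background on both arrays of the bright group. IFNE, an interferon of mucosal epithelia, was at least 6.79-fold higher in TL, CA3, a carbonic anhydrase of muscle and fat, at least 4.51-fold, OBP2B, an odorant-binding protein, at least 4.36-fold and KERA, a keratan sulfate proteoglycan, at least 3.24-fold. In the other direction CRSP3, a peptide of the calcitonin family, was at least 5.99-fold lower in TL and RETNLB, a resistin-like secreted protein, at least 3.17-fold lower. Each bound sets the mean of the bright group against the dim group, where an array counts with the gene's own value or with its dimmest detected signal, whichever is higher. For RETNLB its own values were the higher on both TL arrays, so that its bound is the ratio of the group means. All 6 entered the test through the bright group alone and were chosen among called genes. Their dim values are not well above background, so that their adjusted p-values add no support.

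The counts of the gene lists that follow are to be read against 8.53% higher and 30.6% lower over all RefSeq genes. By that measure the share of lower genes among macrophage, MHC, xenobiotic, HIF, B cell, T cell, protease and glycolysis genes was near the background and is no result about those lists, and the values of their members are given as such.

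Airway secretion was the list with the highest median. Of 24 listed genes 7 had a tested RefSeq-target probe, and 4 of these were higher and 2 lower, with a median of 1.43 against -0.30 over all RefSeq genes. Beside BPIFA1, LTF (lactoferrin, which binds iron away from bacteria) gave 11.38 and 11.36 in TL and 9.79 and 9.83 in DL, BPIFB1, a relative of BPIFA1, was higher by 1.47, and PIGR, the receptor that carries IgA into secretions, gave 13.24 and 13.22 in TL and 11.79 and 11.81 in DL, 2.69-fold higher. LYZ, lysozyme, which macrophages also make, was 3.69-fold lower, with 15.53 and 15.58 in TL and 17.44 and 17.44 in DL. WFDC2 was lower (-0.38), a call that level centring removed. SLPI, an inhibitor of neutrophil elastase, gave 0.11 and was not called. The call of LTF was lost without either TL array. The summed level of the list was 19 on both TL arrays and 19.2 on both DL arrays, where SLPI, LYZ and WFDC2 were the brightest members. SPAG6, a cilium protein and the single tested gene of the ciliated list, gave -0.11 and was not called.

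Of 13 tested neutrophil genes 3 were higher and 2 lower, with a median of -0.17. The 3 higher genes encode cathelicidin or protegrin peptides stored in neutrophil granules. PMAP-36 gave 9.47 and 9.57 in TL and 8.14 and 8.15 in DL, PR39 gave 9.80 and 9.92 in TL and 8.65 and 8.63 in DL and NPG4 was higher by 0.95. NCF1 and TREM1, which serve the oxidative burst and activation of these cells, were lower (-0.88 and -0.87). PGLYRP1, a peptidoglycan-binding granule protein, differed by -0.26 and was not called. The summed level of the list was 18.4 on both TL arrays and 18.7 on both DL arrays.

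Among 34 tested cytokines and chemokines 8 were higher and 5 lower, with a median of -0.27. Beside AMCF-II and CXCL2, CXCL8 (interleukin 8) was higher by 1.22, CCL20 by 1.02, CCL2 by 0.89, CSF2 by 0.83, IL18 by 0.53 and IL1A by 0.40. The genes called lower were CCL21, which guides lymphocytes to lymphatic tissue (9.68 and 9.69 in TL and 11.10 and 11.09 in DL), IL27 (-1.38), LTA (-1.08), CCL3L1 (-0.75) and TNF (-0.55). IL6 and IL10 gave -0.08 and -0.07 and were not called. Under level centring 10 were higher and 2 lower. Receptors of these factors showed no gene higher. Of 25 tested, 11 were lower, with a median of -0.73, led by IL4R (7.15 and 7.11 in TL and 9.11 and 9.14 in DL), CCR10 (-1.65) and CCR9 (-1.62). Their median level was 9.73, where lower calls are common, and under level centring 4 were lower and 1 higher. CXCR4 and CCR1, which are bright, gave 0.03 and -0.09 and were not called.

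Chaperones had members higher in TL and none lower. Of 10 tested genes 5 were higher, with a median of 0.34, and 5 were higher under level centring. With scaling to the 75th percentile the median was -0.24, against -0.57 over all RefSeq genes, and HSPE1 turned to -0.16, while the 4 largest members stayed above 0. HSPH1, a nucleotide exchange factor of the HSP70 machine, gave 16.16 and 16.14 in TL and 14.18 and 14.20 in DL. HSPA6, a stress-induced member of the HSP70 family, gave 14.36 and 14.45 in TL and 12.64 and 12.56 in DL. HSP70.2, another inducible HSP70, gave 17.95 and 17.90 in TL and 16.13 and 16.19 in DL. HSP90AA1, the inducible cytosolic HSP90, gave 18.14 and 18.18 in TL and 17.08 and 17.00 in DL, and its 4 probes were higher by 0.74 to 1.40. HSPE1, the mitochondrial partner of HSP60, was higher by 0.36. HSP90B1 and CALR, chaperones of the endoplasmic reticulum, gave 0.11 and 0.04, and HSPB1 gave 0.31. On every TH and DH array the 4 large members lay below both TL arrays, and DH, on the same slide as TL, gave 14.34 and 14.29 for HSPH1. TH minus DH was -0.06 for HSPH1, -0.11 for HSPA6, -0.23 for HSP70.2 and -0.07 for HSP90AA1. The breed difference at low altitude exceeded that at high altitude by 2.03, 1.91, 2.00 and 1.19 in that order, each past the threshold. Without either TL array HSP90AA1 was no longer called. Of 9 tested immediate early genes 3 were higher and none lower. NR4A3, an orphan nuclear receptor induced within minutes of a stimulus, gave 13.12 and 13.08 in TL and 11.22 and 11.28 in DL, CTGF was higher by 0.72 and KLF6 by 0.44, while JUN gave 0.03 and MYC -0.57, neither called. Fainter KLF6 probes gave 0.15 and -0.13, and a fainter NR4A3 probe 0.34, none called. The median of this list was 0.03, and with scaling to the 75th percentile it was -0.48 and KLF6 lay at -0.23.

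Most called splicing factors were higher in TL. Of 10 tested genes 7 were higher and 1 lower, with a median of 0.67, and under level centring 8 were higher and none lower. SRSF5, a serine and arginine rich factor that selects splice sites, gave 14.58 and 14.53 in TL and 12.17 and 12.18 in DL, 5.22-fold higher. PNISR gave 15.25 and 15.26 in TL and 14.05 and 14.07 in DL, TRA2A gave 13.07 and 13.04 in TL and 12.08 and 12.06 in DL, SRSF6 was higher by 0.90, SRSF11 by 0.77, SRSF1 by 0.56 and TRA2B by 0.53. PTBP1, which represses exons, was lower (-0.86). HNRNPA1 and SRSF2 gave -0.21 and 0.03 and were not called at their brightest probes. Fainter HNRNPA1 probes at -0.449 and -0.362 were lower, and another at -0.360 was not called. With scaling to the 75th percentile the median of the list was 0.00, and SRSF1 and TRA2B turned to -0.12 and -0.10. At high altitude TH and DH differed by 0.15 for SRSF5, 0.01 for PNISR and -0.09 for TRA2A, none called.

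**Figure D3:**
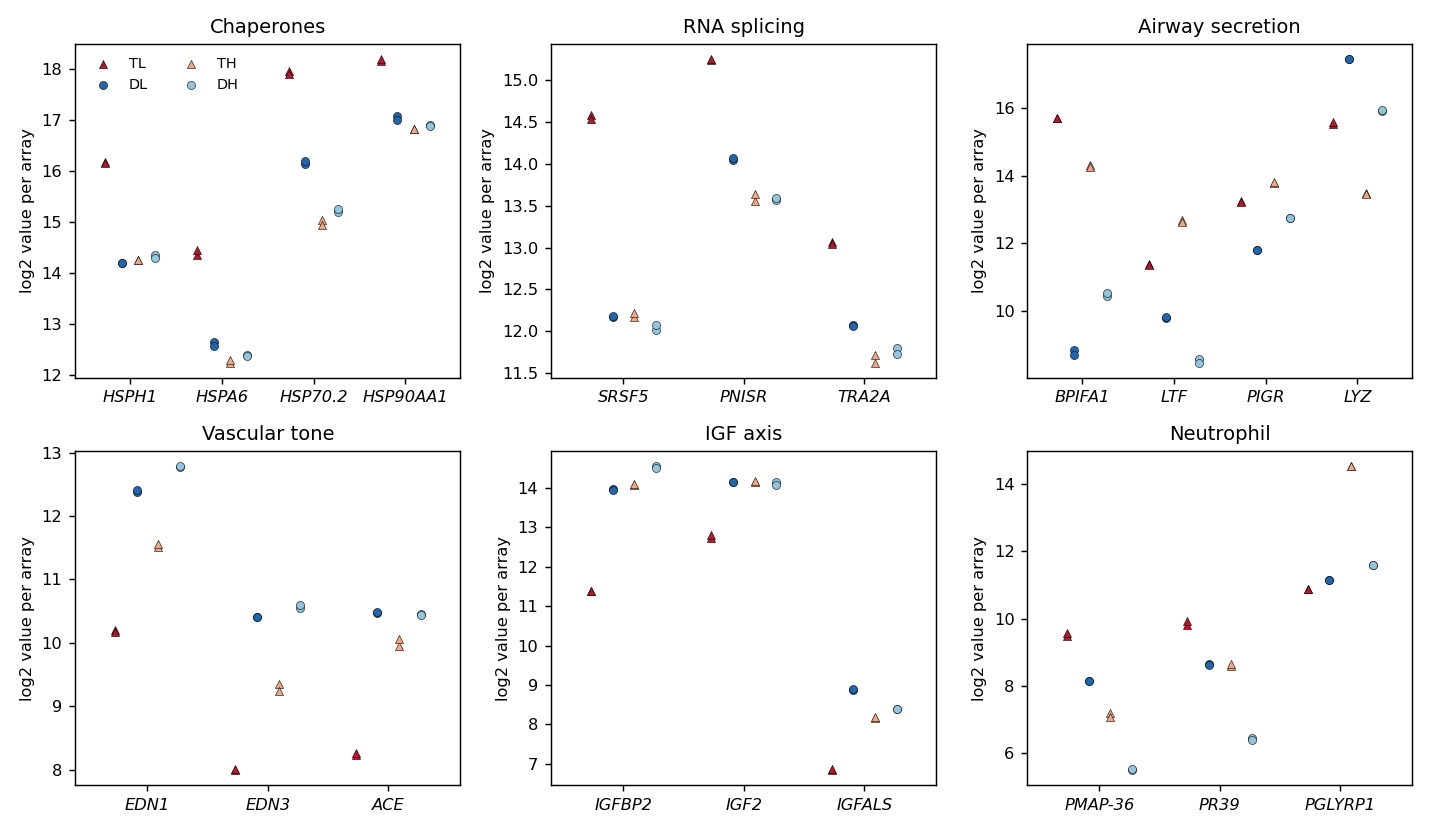
Deposited log2 value of every array in all 4 groups (TL and TH triangles, DL and DH circles) for members of 6 lists, with a scale of its own for each panel. For the chaperones, the splicing factors and the IGF axis TL lies apart from the other groups, whereas for BPIFA1, PIGR, LYZ, EDN1 and EDN3 the breeds lie apart at both altitudes.

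Vessel tone genes were lower in TL without exception among those called. Of 17 tested, 10 were lower and none higher, with a median of -0.82. The median level of the list was 11.41, and at 10 to 12 lower calls took 49.4% of RefSeq-target probes. Endothelins constrict vessels, and EDN1 gave 10.20 and 10.17 in TL and 12.37 and 12.41 in DL, 4.62-fold lower. EDN3 gave 8.0 and 8.01 in TL and 10.40 and 10.40 in DL, 5.27-fold lower, and its probes differed by -2.40 and -2.43. The endothelin receptors EDNRA and EDNRB were lower (-0.82 and -0.68). ACE, which lung endothelium uses to make angiotensin II, gave 8.22 and 8.26 in TL and 10.47 and 10.49 in DL. KCNA5, a potassium channel of pulmonary artery muscle, was lower (-1.69), CALCRL and RAMP2, which form the adrenomedullin receptor (-1.16 and -0.51), their ligand ADM (-0.45), and NOS2 (-1.08). NOS3, the endothelial nitric oxide synthase, differed by -0.09 and was not called. GUCY1A3, a subunit of the nitric oxide receptor, gave -1.75 but varied more between arrays and was not called. Level centring left 5 of the 10 lower calls, those of EDN1 (-1.84), EDN3 (-1.65) and ACE (-1.51) among them, and removed that of EDNRA (-0.08).

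Endothelial and angiogenic genes had 6 of 13 lower and none higher, with a median of -0.66, and 3 lower under level centring. SOX17, a transcription factor of arterial endothelium, gave 7.20 and 7.12 in TL and 9.12 and 9.09 in DL. ANGPTL4 was lower (-1.22), the TIE2 ligands ANGPT1 and ANGPT2 (-0.92 and -0.87), FLT1, a VEGF receptor (-0.89) and ICAM2 (-0.66). The pan-endothelial markers PECAM1 (15.87 and 15.81 in TL and 15.91 and 15.93 in DL) and CDH5 (16.33 and 16.32 in TL and 16.64 and 16.57 in DL) differed by -0.08 and -0.28 and were not called at these probes. A fainter CDH5 probe was lower (-1.14), and a second PECAM1 probe gave -0.34, not called. With scaling to the 75th percentile the brightest probes gave -0.73 for PECAM1 and -0.88 for CDH5, against a median of -0.57 over all RefSeq genes. The summed level of the list was 18.4 on all 4 arrays. Of 13 genes of the hypoxia-inducible factor (HIF) system and its targets 1 was higher and 3 were lower, with a median of -0.26. VEGFA, the main growth factor of endothelium, was higher by 0.38, or by 0.01 once scaled at the 75th percentile. IGFBP3, PDK1 and ADM were lower (-1.62, -1.20 and -0.45). The oxygen-regulated subunits HIF1A and EPAS1 gave -0.28 and -0.10, and LDHA -0.33, none called.

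Alveolar lists are read against 39.1% called over all RefSeq genes. The surfactant and type II list, with 1 gene higher and 1 lower of 5, lay near that share. Of 5 tested genes of surfactant and type II cells SFTPA1 was higher (13.72 and 13.76 in TL and 13.23 and 13.21 in DL), a difference of -0.03 once arrays were scaled at the 75th percentile, and whose call no fit without 1 of the TL, TH, DL or DH arrays kept. SFTPD, a collectin that binds microbes, was lower (14.04 and 14.04 in TL and 14.84 and 14.87 in DL). SFTPB and SFTPC gave 0.32 and -0.10. None of 6 type I genes was called by limma, of which AQP5, with -0.48 and an adjusted p of 0.0013, came nearest, and 5 of the 6 passed an unadjusted p of 0.05. So did 26874 of all 33177 probes. Of 9 water and ion transport genes ATP1B1, a subunit of the sodium pump that drives fluid out of alveoli, was higher (15.38 and 15.43 in TL and 14.74 and 14.67 in DL), a difference of 0.70, or of 0.02 once scaled at the 75th percentile. AQP1, the water channel of capillaries, was lower (8.98 and 8.98 in TL and 9.59 and 9.56 in DL). AQP1 was no longer lower under level centring, at 0.18. SCNN1A, the epithelial sodium channel subunit, gave 0.30 ± 0.31 (SE).

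Of 16 T and NK genes 6 were lower and none higher, with a median of -0.38 against -0.30 over all RefSeq genes. CD40LG, the helper signal of activated T cells, was dim in TL (4.63 and 4.93 in TL and 6.85 and 6.89 in DL), CCR7, a homing receptor, gave 10.14 and 10.06 in TL and 11.50 and 11.53 in DL, IL7R was lower (-1.19) and CD3E, a chain of the T cell receptor complex (-1.05). CD3D, CD3G, CD4 and CD8A gave -0.55, -0.02, -0.02 and 0.56 and were not called, and the summed level of the list was 15.9 on all 4 arrays. Under level centring 3 of the list were higher and 2 lower. Of 6 B cell genes CD79A, a chain of the B cell receptor complex (8.25 and 8.32 in TL and 9.79 and 9.80 in DL), and BLNK, its adaptor (8.11 and 8.12 in TL and 9.63 and 9.57 in DL), were lower. Both calls held under level centring.

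Macrophage genes had 2 of 22 higher and 6 lower, with a median of -0.01. SPP1, osteopontin, gave 14.01 and 13.94 in TL and 12.12 and 12.04 in DL. FABP4, a fatty acid carrier of alveolar macrophages and fat cells, gave 12.69 and 12.79 in TL and 11.69 and 11.78 in DL. FCGR1A, the high-affinity IgG receptor, was 3.53-fold lower in TL, SIGLEC1 was lower (-1.22), the lysosomal protease CTSD (-0.84), C1QA (-0.75) and CD14, a co-receptor for bacterial lipopolysaccharide (-0.62), beside LYZ. CD163, CD86 and CD36 gave 0.23, -0.24 and 0.20. Toll-like receptors and their adaptors had 9 of 16 lower and none higher, with a median of -0.92, the lowest of the lists. Their median level was 10.44, and at 10 to 12 lower calls took 49.4% of RefSeq-target probes. TLR9 and TLR3, which sense DNA and double-stranded RNA in endosomes, were both lower. TLR9 gave 5.95 and 5.89 in TL and 7.77 and 7.76 in DL. TLR3 gave 9.46 and 9.48 in TL and 11.30 and 11.29 in DL, and TLR10 gave 8.12 and 8.09 in TL and 9.77 and 9.77 in DL. TRAF6, NOD2 and MYD88 were lower (-1.63, -1.20 and -1.02), while TLR2 and TLR4, which sense bacterial cell walls, gave 0.07 and 0.02. Level centring left 5 of the 9 lower calls.

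Of 21 genes of the swine MHC and of antigen presentation 6 were lower and 1 higher, with a median of -0.08. TAP1, the peptide transporter (11.10 and 11.11 in TL and 12.01 and 12.01 in DL), the immunoproteasome subunits PSMB8 (-0.71) and PSMB9 (-0.35) and the class II chain SLA-DRB1 (-0.70) were lower, and SLA-3, a class I gene, was higher by 0.59, or by 0.03 once scaled at the 75th percentile. MHC loci are highly polymorphic, and how a base difference under a probe bears on its signal was not tested. Level centring left TAP1 and PSMB8 lower. Interferon-stimulated genes had 5 of 17 higher and 3 lower, with a median of 0.19, or -0.43 with scaling to the 75th percentile. MX2, an antiviral GTPase, gave 12.18 and 12.20 in TL and 10.41 and 10.37 in DL, USP18 was higher by 1.13 and OAS2, GBP1 and IFIH1 by 0.45, 0.42 and 0.37, the last 3 on the lower side with that scaling (-0.24, -0.27 and -0.15). IRF9, OASL and IRF7 were lower (-0.82, -0.69 and -0.61), and MX1 and CXCL10 gave -0.31 and 0.25, neither called, with CXCL10 at -0.43 once scaled at the 75th percentile. Complement had 6 of 22 higher and 3 lower, with a median of 0.35 (-0.08 with scaling to the 75th percentile), and 9 and 1 under level centring. CLU, a complement inhibitor and secreted chaperone, gave 15.22 and 15.17 in TL and 13.71 and 13.69 in DL, C4A and C6 were higher by 0.92 and 0.89, and CFB by 0.64, or -0.06 with that scaling. C1QA, C7 and C8A were lower (-0.75, -0.60 and -0.55), the last 2 turning to 0.18 and 0.22 under level centring. C3, the central component, gave 0.34 (adjusted p = 0.000879 by limma).

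Muscle genes moved in both directions. Of 24 tested skeletal muscle genes 4 were higher and 5 lower, with a median of 0.28. Beside CA3, ACTA1 (skeletal actin) gave 8.35 and 8.38 in TL and 7.17 and 7.03 in DL, MYH2 was higher by 0.52 and MYOG by 1.37. Beside MYOZ3, TNNI2 and TNNT1 were lower (-1.72 and -1.69), MYOZ1 (-1.35) and TNNC2 (-0.63), or 0.14 under level centring. CKM, muscle creatine kinase, gave 11.46 and 11.40 in TL and 10.98 and 11.04 in DL and was not called. The summed level of the list was 15.4 on both TL arrays and 15.5 on both DL arrays. Of 9 smooth muscle genes MYOCD, a coactivator of the contractile genes, was lower (-0.52), a difference that turned to 0.25 under level centring, and CNN1 and DES gave 0.08 and -0.40.

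Matrix genes were lower in 6 of 12 and higher in 1, with a median of -0.74, and lower in 5 and higher in 2 under level centring. Of the fibrillar collagens, COL5A1 gave 8.88 and 8.88 in TL and 10.44 and 10.41 in DL, and COL5A2 gave 10.02 and 10.07 in TL and 11.26 and 11.22 in DL. SPARC, a collagen-binding glycoprotein, gave 15.96 and 15.99 in TL and 17.16 and 17.16 in DL, and TNC, FBN1 and ITGB3 were lower (-0.93, -0.80 and -0.67). DCN, decorin, was higher by 1.00. Of 14 proteases and inhibitors 2 were higher and 5 lower, with a median of -0.33. PLAT, the tissue plasminogen activator, gave 14.14 and 14.16 in TL and 12.82 and 12.80 in DL, and ADAMTS1 was higher by 0.64, or -0.04 with scaling to the 75th percentile. ADAM10, TIMP1, MMP2, MMP14 and TIMP2 were lower (-1.24, -0.75, -0.75, -0.62 and -0.42), and MMP9, a neutrophil gelatinase, gave -0.23. TGF-beta and BMP genes had 7 of 14 lower and none higher, with a median of -0.44, and 4 lower and 1 higher under level centring. BMP7 gave 8.62 and 8.58 in TL and 10.41 and 10.41 in DL, TGFBR1 and BMPR1B were lower (-1.18 and -1.18), BMP4 (-0.73) and SMAD1 (-0.71), while TGFB1 gave -0.29.

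Most called genes of the insulin-like growth factor (IGF) axis were lower. Of 14 tested genes 7 were lower and 1 higher, with a median of -0.87. The median level of the list was 8.62, and at 8 to 10 lower calls took 52.7% of RefSeq-target probes, so that the count is near that share. IGFBP2, a carrier protein of IGFs, gave 11.39 and 11.40 in TL and 13.97 and 13.95 in DL, and IGFALS, a subunit of the circulating IGF complex, gave 6.85 and 6.86 in TL and 8.86 and 8.90 in DL. IGF2, the fetal growth factor, gave 12.74 and 12.81 in TL and 14.14 and 14.15 in DL, and its 5 probes were lower (-1.37 to -2.25). SOCS2, IGFBP5 and STAT5A were lower (-1.16, -1.01 and -0.56), the last at 0.21 under level centring, and IGFBP6 was higher by 0.65, or by 0.01 once scaled at the 75th percentile. IGF1 gave 10.11 and 9.44 in TL and 10.52 and 10.49 in DL, a spread within TL that left it uncalled. Under level centring 3 were lower, with IGFBP2 at -2.47, IGF2 at -1.29 and IGFALS at -1.26, and 3 were higher. TH minus DH was -0.45 for IGFBP2, -0.23 for IGFALS and 0.04 for IGF2.

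Fat storage genes had 11 of 27 lower and 4 higher, with a median of -0.40, and 5 lower and 7 higher under level centring. Beside APOA4, the lipid droplet protein CIDEC gave 9.77 and 9.70 in TL and 11.83 and 11.85 in DL, the lipases PNPLA2 and LIPE were lower (-1.40 and -1.32), and SREBF1, a regulator of lipid synthesis (-1.37). FABP4, SCD, CPT1B and ACSL4 were higher by 1.01, 0.92, 0.77 and 0.53, the last at -0.04 with scaling to the 75th percentile. ADIPOQ, which marks fat cells, gave 0.36, was well above background on no DL array, and was not called. Of 26 xenobiotic and aldehyde enzymes 7 were lower and 3 higher, with a median of -0.09. Beside CYP1A1, CYP2D25 gave 7.05 and 7.03 in TL and 9.02 and 9.02 in DL, EPHX2 and AKR1C1 were lower (-1.29 and -1.07) and CYP2B22 (-0.59). CES1, a carboxylesterase of macrophages and liver, gave 12.25 and 12.25 in TL and 10.33 and 10.31 in DL, CYP2E1 was higher by 0.73, and CYP3A46, well above background on no DL array, was at least 2.19-fold higher.

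Few genes of translation and respiration were called. The 2 lists had median levels of 18.3 and 15.39, and above 14 RefSeq-target probes were higher in 9.09% and lower in 12.3%. Of 25 cytosolic ribosomal proteins RPS3 alone was called, lower (-0.81), and the rest lay between -0.47 and 0.03. Of 17 genes of oxidative phosphorylation UCP3, a mitochondrial carrier of muscle, alone was called, lower with 9.58 and 9.52 in TL and 11.58 and 11.55 in DL, while NDUFA4 and SDHB gave -0.05 and 0.00. Glycolysis had 4 of 11 lower and none higher, with a median of -0.33, namely GPI (9.31 and 9.30 in TL and 10.64 and 10.58 in DL), PDK1, TPI1 (-0.64) and PFKM (-0.52), and 2 lower and 2 higher under level centring. Of 15 antioxidant genes MT1A, a metal-binding metallothionein, was lower with 14.45 and 14.42 in TL and 16.46 and 16.49 in DL and GPX2 was lower (-1.20). CAT and SOD3 gave -0.18 and -0.97. In the iron list 2 of 13 were higher and 2 lower, with a median of -0.06. HPX, which carries free heme, was higher by 0.86 beside LTF, and SLC11A1 and IREB2 were lower (-0.66 and -0.49), while FTH1, the heavy ferritin chain, gave 0.00. Cell cycle genes had 8 of 15 lower and none higher, with a median of -0.57, and 2 lower under level centring. CDKN2B (-1.17), CCND3 (-1.04) and CDC25C (-0.71, or 0.06 under level centring) led them. CCNB1 and CDK1, which rise in dividing cells, gave 0.04 and -0.29.

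**Figure D4:**
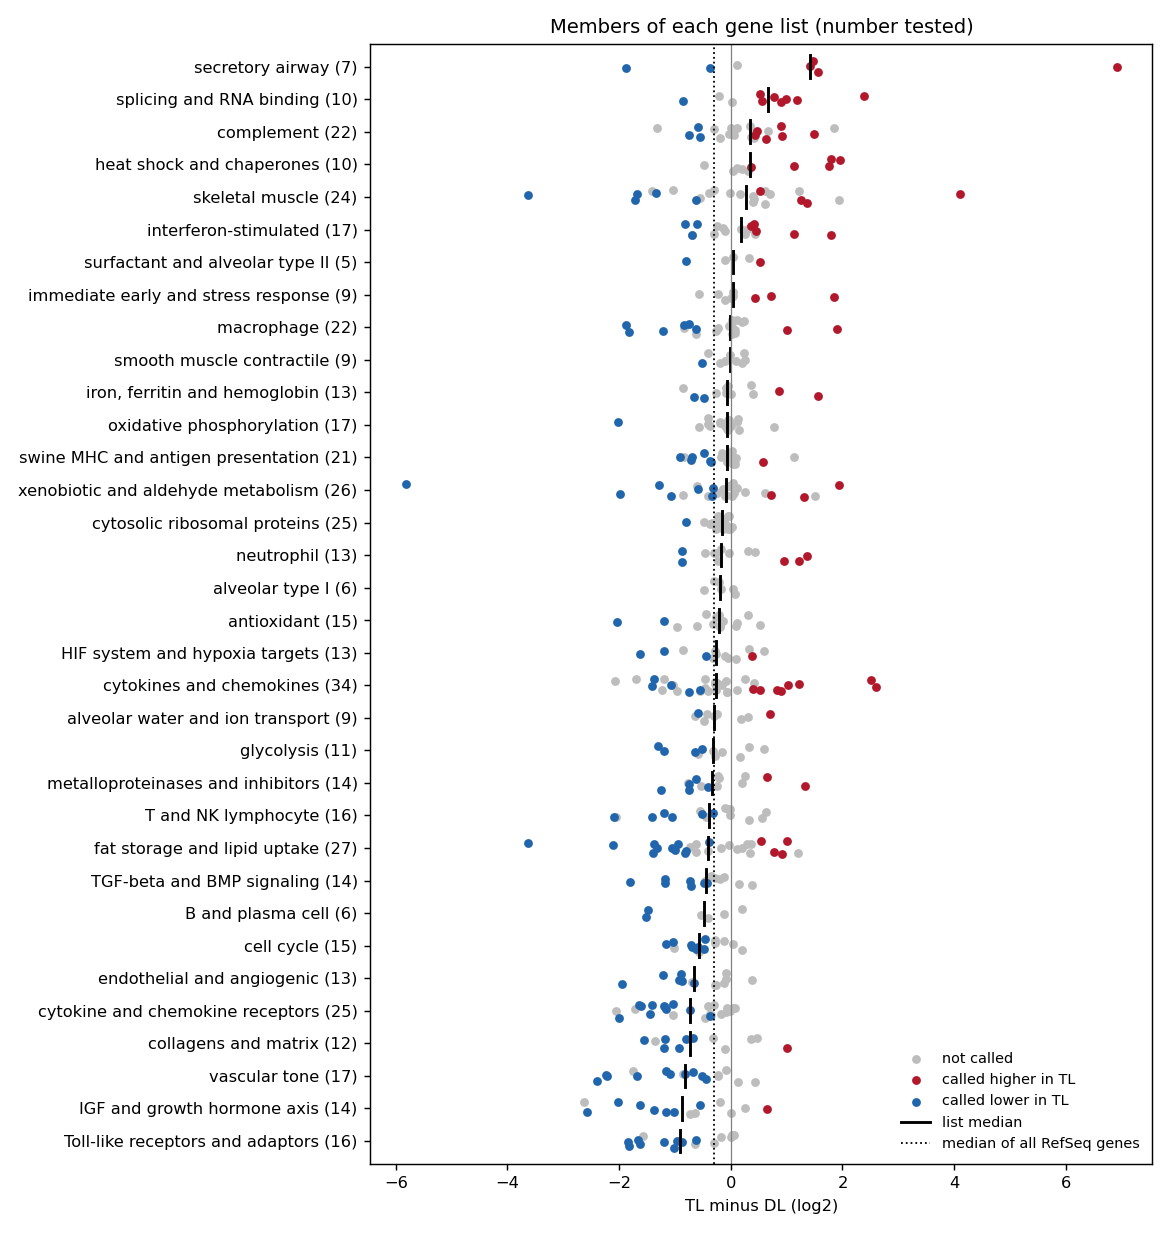
TL minus DL difference (log2) of each tested member of the 34 lists with 5 or more tested genes, ordered by list median (black bar), with calls at an FDR below 0.0001 in color and the median of all RefSeq genes (-0.30) as a dotted line. Airway secretion (1.43) and splicing (0.67) lie highest, Toll-like receptors (-0.92) lowest, and the ribosomal proteins sit in a narrow band.

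Among the named genes, those reached through other probes alone had many of the largest differences after BPIFA1 and CYP1A1. Their names come from tables that the study sorted by significance and that were used in part, so that counts over them are no background. SMAD6, an inhibitor of BMP signals, gave 14.32 and 14.35 in TL and 9.60 and 9.62 in DL, ABCC5, an organic anion transporter, 14.78 and 14.77 in TL and 10.55 and 10.56 in DL, and NFIC, a transcription factor, 13.11 and 13.10 in TL and 8.97 and 8.99 in DL. PRKCE, a protein kinase C, gave 11.68 and 11.65 in TL and 7.37 and 7.36 in DL, but a second probe was lower (-1.73). For SMAD6, NFIC and ABCC5 TH and DH differed by 0.20, -0.29 and -0.24, none called. In the other direction TFF1, a trefoil peptide of mucus, gave 5.04 and 4.64 in TL and 9.33 and 9.31 in DL, but TH lay near DL and DH near TL, so that the breed difference averaged over both altitudes was 0.12. Its values followed the slides and neither the breed nor the altitude of the labels. The slides also part the moved pigs (TL and DH) from those that stayed, so that slide and move cannot be told apart. Whether an array's label is in error was not tested. It was well above background on neither DH array. Lower were also TMSB15B, an actin-binding thymosin (7.55 and 7.46 in TL and 11.94 and 11.94 in DL), CRTAC1, a matrix protein of cartilage (8.58 and 8.56 in TL and 12.65 and 12.66 in DL) and IBSP, bone sialoprotein (5.18 and 5.29 in TL and 9.07 and 9.08 in DL).

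The breed difference at low altitude was then set beside that at high altitude, TH minus DH, which shares no array with TL minus DL though both come from 1 fit. The slides are reversed at high altitude, with TH on the slide of DL and DH on that of TL. TL and DH were also the moved groups. The change of the breed difference with altitude, the slide and the move therefore cannot be told apart. Of the 146 RefSeq genes higher in TL 48 were also higher in TH (32.9%, and 26.8% of the 179 higher in TH), and 9 were lower, beside 10.5% higher and 7.66% lower in TH over all RefSeq genes. Of the 523 lower in TL 80 were also lower in TH (15.3%, and 61.1% of the 131 lower in TH), and 63 were higher. The median of TH minus DH was 0.24 for the genes higher in TL, -0.04 for those lower and 0.05 for all RefSeq genes. The 2 breed differences themselves differed, by the interaction in limma at an FDR below 0.0001, for 403 of the 669 called genes (60.2%), beside 31.1% of all RefSeq genes and 30.7% of all probes. The interaction contains TL minus DL, on which these genes were called. A higher share among them follows from that choice and is no result about altitude.

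Named genes took several forms. BPIFA1, DMBT1, ALB, CXCL2 and MX2 were higher in Tibetan pigs at both altitudes and more so at low altitude, and CYP1A1, MYOZ3, EDN1, EDN3, TLR3 and CIDEC were lower at both and more so at low altitude. CYP1A1 differed by -3.11 between TH and DH, against -5.82 between TL and DL. LTF, CLCA1, AMCF-II, HPX, PR39, ACTA1, NPPB, LYZ and UCP3 had the same direction at both with the larger size at high altitude, where LTF differed by 4.12. At high altitude AMCF-II was well above background on no DH array and at least 32.2-fold higher in TH, and NPPB on no TH array and at least 18.3-fold lower. PIGR, PMAP-36, NPG4, USP18, MT1A and ACAN were called in the same direction at both altitudes with no called interaction, as PIGR with 1.43 and 1.05 and MT1A with -2.04 and -2.37. CD79A, TLR10, SPARC, CYP2D25 and TAP1 were lower in TL and higher in TH, as CD79A with 2.92 at high altitude, and NR4A3 was higher in TL and lower in TH (-1.32).

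**Figure D5:**
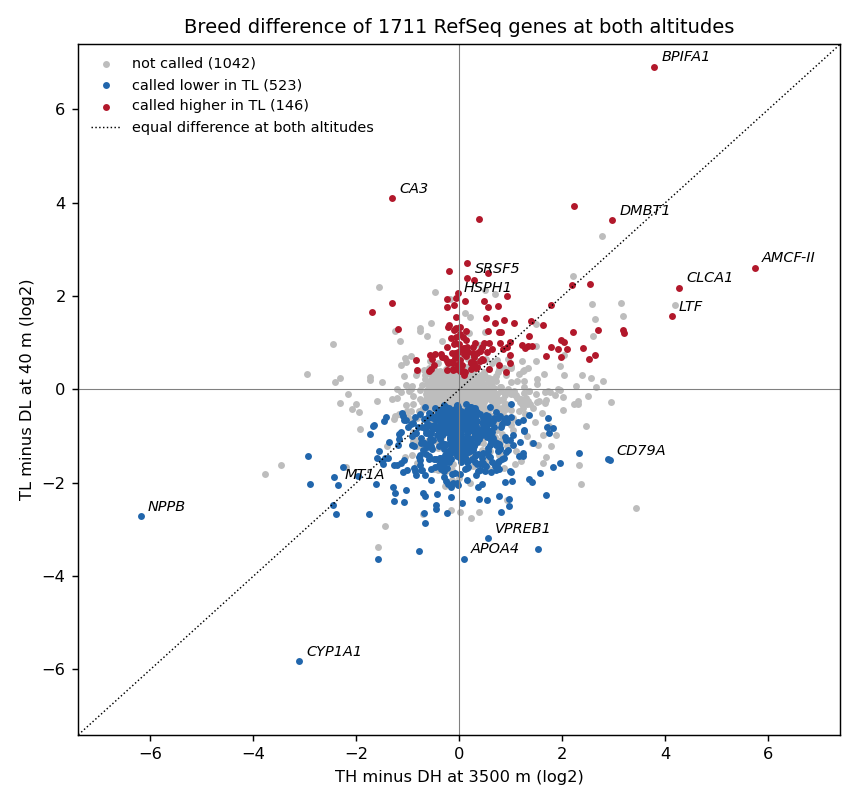
TL minus DL at 40 m (vertical) against TH minus DH at 3500 m (horizontal), both log2, for 1711 RefSeq genes, colored by the call of TL minus DL. BPIFA1, DMBT1, CYP1A1 and NPPB lie in the quadrants of equal direction, HSPH1 and SRSF5 near 0 on the horizontal axis, and CA3 and CD79A in the opposite quadrants.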

How the data were processed

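Lung RNA of 8 pigs was hybridised to 1-color Agilent pig arrays, 2 arrays in each of 4 groups. The deposited log2 values were normalized by the authors (RMA per their methods, exact steps not given in the sources used here), and they ranked probes as the scanner's processed signals do. The deposited scanner files hold spot intensity from Agilent Feature Extraction 10.7.3.1 (per the file headers, while the submitters' processing notes name 9.1), and served for detection marks, slides and alternatives. A spot that the scanner software flagged as an outlier was left out of the fit on that array. No per-sample column lacked a sample (0 such columns).

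Groups followed the labels. limma 3.58.1 (R 4.3.3) was fitted with 4 group means over 8 arrays, with contrast TL minus DL and Benjamini-Hochberg adjustment over 33177 probes. The interaction was the second contrast. The threshold was that of the methods, which used a two-way analysis of variance. The fit was tested on simulated data, where 200 probes were shifted by 2 log2 units in TL. At an FDR below 0.0001 it recovered 105 of them with 0 false calls, and at 0.05 170 with 6. A gene that was not called is therefore not shown to be unchanged. With 2 arrays a group, the number of arrays limits the precision.

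RefSeq symbols came from a RefSeq table of a later assembly (2682 of 3239 RefSeq-target probes, 1903 genes), so no coordinates are printed. A gene was taken at its probe brightest over the 8 arrays. Other probes were named only from the study's gene tables (2880 probes). Named genes were the 12 largest called differences each way, the 4 largest bounds and the 4 largest genes of other probes each way, and, per list, up to 3 called members and 2 key members. Further list members were named after their values were seen. The members, the 35 gene lists and this rule were chosen with earlier results of these data known. A few genes are not reported here and were left out of the lists.

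Alternatives changed the background correction, scaling, filter, moderation, threshold, arrays and blocking. Level centring subtracted a lowess curve (span 0.3) over RefSeq-target probes.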

Additional observations from a re-analysis of the deposited data

Results flagged for a closer look

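For 104 of the 165 named genes the breed difference at low altitude (TL minus DL) and that at high altitude (TH minus DH) differed by the interaction in limma at an FDR below 0.0001. The value in parentheses is TL minus DL less TH minus DH, in log2 units. Of all RefSeq genes 31.1% passed the same threshold. Many named genes were chosen by the size or call of TL minus DL, which is part of the interaction. A higher share among them follows from that choice. The interaction is also the difference between the slides, and between moved pigs (TL and DH) and pigs that stayed. Altitude, slide and move cannot be told apart in any of these values. Some genes were well above background on neither array of a group, CA3 and IFNE in DL, KERA in DL and DH, RETNLB in TL, AMCF-II and TFF1 in DH and NPPB in TH, and their values are fitted differences and no bounds.

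Of the genes higher in TL and called at low altitude alone, 19 in number, the chaperones were HSP70.2 (2.00), HSP90AA1 (1.19), HSPA6 (1.91) and HSPH1 (2.03), and the splicing genes were PNISR (1.18), SRSF5 (2.23) and TRA2A (1.08). The genes named through other probes were ABCC5 (4.46), NFIC (4.42) and SMAD6 (4.53). The rest of them were ATP1B1 (1.03), CA3 (5.41), CES1 (2.17), IFNE (3.28), IVNS1ABP (2.09), KLF5 (2.56), PLAT (1.33), SPP1 (1.41) and TNNI3 (2.76).

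A further 41 genes were lower in TL and called at low altitude alone. Among vessel genes these were ACE (-1.80), ANGPT1 (-1.56), EDNRA (-0.7) and SOX17 (-2.09). Immune genes among them were BLNK (-1.56), CCL21 (-1.14), CCR7 (-1.20), CD3E (-1.38), FCGR1A (-1.68), FCN1 (-2.41), IL4R (-1.87), IRF9 (-1.01), PSMB8 (-1.24), TLR9 (-2.17) and VPREB1 (-3.74). In matrix and growth factor lists they were ADAM10 (-1.13), BMP7 (-1.81), BMPR1B (-1.43), COL5A1 (-1.34), COL5A2 (-0.92), IGF2 (-1.41), IGFALS (-1.80) and MMP2 (-1.0). Metabolic and antioxidant genes were APOA4 (-3.72), GPI (-1.14), GPX2 (-1.96), PDK1 (-1.79), PFKM (-0.92), PNPLA2 (-1.96) and TPI1 (-0.78). The others were BPIFB2 (-2.19), CCND3 (-1.08), CDC25C (-0.9), CDKN2B (-1.94), CELA2A (-3.44), CRTAC1 (-3.49), IBSP (-3.25), NPW (-4.95), RETNLB (-1.31), RPS3 (-0.74) and SERPINA7 (-2.68).

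In 16 genes both breed differences ran the same way and the larger was at low altitude, namely ALB (1.07), BPIFA1 (3.13), C7H6orf52 (-0.9), CIDEC (-0.81), CLU (0.63), CXCL2 (1.95), CYP1A1 (-2.71), DMBT1 (0.65), EDN1 (-0.96), EDN3 (-1.12), IGFBP2 (-2.11), KERA (1.72), MX2 (1.04), MYOZ3 (-2.04), TLR3 (-0.98) and TMSB15B (-2.35). For 9 genes the larger was at high altitude, namely ACTA1 (-1.43), AMCF-II (-3.13), CLCA1 (-2.09), HPX (-1.23), LTF (-2.56), LYZ (0.56), NPPB (3.47), PR39 (-0.98) and UCP3 (0.89).

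Opposite directions were called for 12 genes. Higher in TL and lower in TH were KLF6 (0.99), NR4A3 (3.17), PRKCE (4.87) and SFTPA1 (1.02). Lower in TL and higher in TH were CCR10 (-2.34), CD79A (-4.43), CYP2D25 (-3.39), SPARC (-2.23), TAP1 (-1.51), TFF1 (-9.20), TIMP1 (-1.24) and TLR10 (-3.49). The 1 probe of TFF1, the mucus peptide, has no RefSeq target and gave 9.94 and 9.95 in TH and 9.33 and 9.31 in DL on 1 slide, and 5.16 and 5.28 in DH and 5.04 and 4.64 in TL on the other.

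Called at high altitude alone, where they were higher in TH, were 5 genes, HIF1A (-1.01), IL6 (-0.97), MMP9 (-1.91), MX1 (-2.54) and PGLYRP1 (-3.20). Neither breed difference passed the threshold for CD163 (0.64) and SFTPB (0.87), although the difference between them did.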

How the results depend on the processing

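The 2 pigs a group, the slide that each group shares and the brightness of the TL arrays limit every value. Detection of dim RNA differed between groups (31641 to 31722 probes well above background in TL, 27088 to 27225 in DL), which bounds what could be compared at low signal. RefSeq-target probes numbered 246 higher and 879 lower, and other probes 5430 and 6816. Of these counts, lower RefSeq-target probes rose to 1320 with scaling to the 75th percentile. With level centring, chosen after seeing the data, RefSeq-target probes numbered 418 higher and 380 lower and lower other probes 2362. At an FDR below 0.05 the counts were 627, 1742, 9955 and 14200 in that order, and with at least 2-fold added 129 and 533 for RefSeq-target probes. Without moderation lower RefSeq-target probes numbered 580 and lower other probes 4148. With the TL and DL arrays alone limma called 0 in each of the 4 counts, although 26943 probes passed an unadjusted p of 0.05 and 26475 an FDR of 0.05. Leaving out 1 array at a time gave 74 to 157 and 266 to 545 RefSeq-target probes and 2664 to 4286 and 1822 to 4111 other probes, and at an FDR below 0.05 with at least 2-fold 124 to 128, 515 to 538, 6349 to 6611 and 4590 to 4977. The raw signal, the other background and filter settings, the intensity trend and kept outlier spots left all 4 counts within 1.5 times. Replicate numbers did not pair the pigs (r of deviations -0.045 between TL and DL, and -0.069 to 0.109 over all group pairs). With the number as a replicate block RefSeq-target probes numbered 125 higher and 471 lower and lower other probes 3576, and 28 of the 165 named genes lost their call.

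Of the 165 named genes, 45 and 46 lost their call without TL array 1 or 2, 42 without either DL array, 26 without either TH array and 28 without either DH array. Of the 24 genes with the largest differences, APOA4 lost it without either DL array, NPW without either TL array and CHGB without any 1 of the TL, DL or DH arrays. Some differences changed sign. With slide as a term, which averages the breed difference over both altitudes, they were -0.114 for SFTPB, -0.271 for SCNN1A, 0.224 for HIF1A, 0.724 for MMP9, 1.34 for PGLYRP1, -0.0919 for CD163, 0.702 for CD79A, 0.961 for MX1, 0.407 for IL6, 0.0793 for TLR10, 0.0757 for RPLP0, 0.088 for TFRC, -0.0571 for KLF6, -0.24 for JUN and 0.121 for TFF1. Level centring gave 0.0255 for AGER, 0.221 for AQP5, 0.179 for AQP1, 0.25 for MYOCD, 0.0368 for PGLYRP1, 0.219 for CD3D, 0.0319 for SLA-DQA1, 0.681 for IL6, 0.215 for IL10, 0.0308 for NDUFA4 and 0.0611 for CDC25C. Scaling to the 75th percentile gave -0.0304 for SFTPA1, -0.35 for SFTPB, -0.578 for CNN1, -0.307 for CD163, -0.476 for SLA-DRA, -0.427 for CXCL10, 0.291 for IL6, -0.331 for CXCR4, -0.493 for TLR2, -0.176 for C3, -0.0587 for CFB, -0.671 for SDHB, -0.445 for FTH1, -0.219 for CCNB1, -0.225 for KLF6 and -0.496 for JUN. Local background with an offset of 50 gave 0.0496 for NDUFA4, -0.00397 for FTH1 and -0.0173 for CCNB1, the processed signal with quantile scaling 0.0495 for NDUFA4, and the raw signal 0.0498 for NDUFA4, -0.00172 for FTH1 and -0.0185 for CCNB1. Leaving out 1 array moved SDHB between -0.0157 and 0.0197, FTH1 between -0.0282 and 0.032, ADIPOQ between -0.00728 and 0.718 and JUN between -0.0361 and 0.0973. The cause was not tested for any of these.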
